A study of Drosophila melanogaster and Drosophila mauritiana and Drosophila melanogaster x Drosophila mauritiana with 7 samples.

Results

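Small RNAs that match the vasa-related repeats (VRr) were described by length in testes of D. melanogaster y w, a strain that carries mutations of the body color gene yellow and the eye color gene white and is labelled Df(1)w67c23(2)y. All 4192 distinct sequences with at least 1 y w read in the deposited VRr table were taken, and they held 137899 reads of 15 to 32 nt. Together with the sequences of the deposited transposon table they make 354921 distinct sequences. The RNA came from testes of adults aged 0 to 5 days, and RNA of 19 to 29 nt was cut from gels for this library, whose title gives 18 nt as the lower limit. It is 1 of 4 small RNA libraries in a series of 7; the others come from testes of F1 hybrids between D. melanogaster P{}Hmr1 and wild-type D. mauritiana and from both parents, and have no column in the VRr table. With 1 y w library there was no replicate, so no p-value is given, and the exact Clopper-Pearson 95% intervals cover counting error only: without molecular identifiers, reads cannot be counted as independent molecules. The full depth of the library is unknown here, and the VRr table holds no transcript by which the testis label could be checked.

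piRNAs are small RNAs of the animal gonad that guide Piwi-class Argonaute proteins to transposons and other repeats. Those made from a long single-stranded precursor mostly begin with U (T in the reads). When a Piwi-class protein cuts a target, it does so opposite bases 10 and 11 of its guide, so the cut makes a new 5′ end that overlaps the guide by 10 nt and places an A at base 10 of a partner to a guide with U first. The 3′ ends are made later, by nucleases and trimming, and piRNAs with 1 5′ end can therefore differ in length. The vasa-related repeats lie in X-chromosome heterochromatin and resemble part of vasa, the gene of a germline RNA helicase.

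The sequences that carry most of the signal are shown first. The 5 most read plus-strand sequences of 23 to 30 nt came from only 3 starts, and the first base, T in all 5, is in capitals.
Plus, 8413 reads, 25 nt: Tatagcacacttttgtatcggcgtc
Plus, 6781 reads, 23 nt: Ttaatgccggaagcgatcccact
Plus, 5937 reads, 25 nt: Ttaatgccggaagcgatcccactgc
Plus, 5081 reads, 23 nt: Tgtttcatcgttagacggctcgg
Plus, 4493 reads, 25 nt: Tgtttcatcgttagacggctcgggc
The 3 most read minus-strand sequences are shown with base 10, A in all 3, in capitals.
Minus, 118 reads, 25 nt: gtgtgctatAccggtaattaccgct
Minus, 98 reads, 25 nt: aatctggatActaggtatcgacgcc
Minus, 78 reads, 27 nt: tccacacgcAataaaaaactttacgag
On build dm6 the first plus-strand sequence is listed at X:22276032-22276056, in copy VRr18, and matched 5 of the 26 VRr copies. The next pair is listed at X:21964868-21964890 and X:21964868-21964892 in VRr3 and matched 23 copies. The last pair, at X:22060852-22060874 and X:22060852-22060876 in VRr10, matched all 26. The minus-strand sequences are listed in VRr2 at X:21890408-21890432, X:21890442-21890466 and X:21890505-21890531 and matched 14 copies each. The listed places run from X:21819609 to X:22371850, beginning 28878 bases beyond the end of lncRNA:flam, the flamenco piRNA locus, in the RefSeq gene table of the same assembly.

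Reads were concentrated in few sequences. The 27 sequences with at least 1000 reads held 56.3% of all reads and the 140 with at least 100 reads held 78.3%, while 1598 sequences (38.1%) had 1 read. Strands are those of the chromosome, as listed. The plus strand held 135112 reads in 3481 sequences and the minus strand 2787 reads in 711 sequences.

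Most VRr reads had piRNA lengths. Lengths of 23 to 30 nt held 114659 reads, or 83.1% (82.9 to 83.3), and lengths under 23 nt held 23239 reads, or 16.9% (16.7 to 17.1). Only 0.961% of reads lay outside the 19 to 29 nt cut from the gel, with 1313 reads under 19 nt and 12 over 29 nt. No read had 31 nt (a count of 0 leaves room for at most 0.00218% at 3 reads), and the single read over 30 nt, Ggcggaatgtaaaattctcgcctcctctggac (32 nt, first base in capitals), did not begin with T. Lengths outside the gel cut were selected against, so their shares are not shares in the testis.

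Plus-strand reads peaked at 25 nt, with a shoulder at 23 and 24 nt. The strand had 2703 reads at 19 nt, 4387 at 20 nt, 4040 at 21 nt, 10310 at 22 nt, 21867 at 23 nt, 22555 at 24 nt, 39551 at 25 nt, 17950 at 26 nt, 7245 at 27 nt and 2713 at 28 nt. Its mean length was 24.1 ± 1.98 nt (SD over reads). The minus strand peaked at the same length, with 227 reads at 22 nt, 321 at 23 nt, 446 at 24 nt, 716 at 25 nt, 412 at 26 nt, 261 at 27 nt and 95 at 28 nt, and a mean of 24.3 ± 2.18 nt (SD over reads). Within 23 to 30 nt the means were 24.8 nt for plus-strand and 25.1 nt for minus-strand reads.

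**Figure D1:**
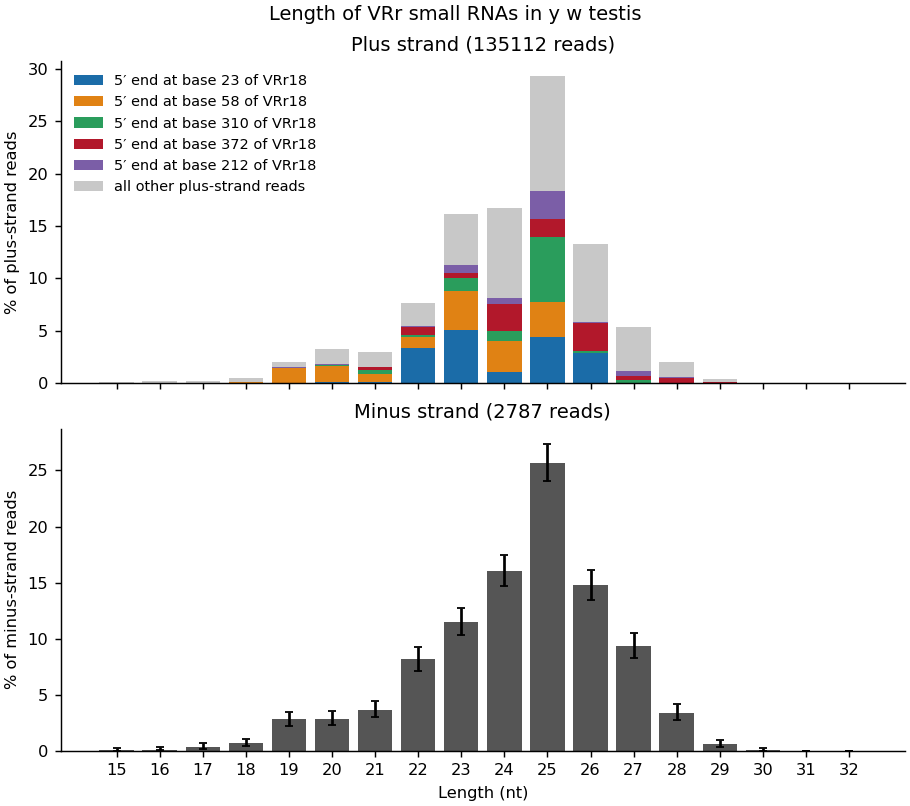
Percent of reads (vertical) at each length in nt (horizontal) for plus-strand reads, with the 5 most read 5′ ends of copy VRr18 in color, and for minus-strand reads, with exact 95% intervals as error bars. Both strands peak at 25 nt, and the end at base 58 fills most of the plus-strand bar at 19 nt.

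The number of different sequences was spread more evenly over length than the reads. Plus-strand reads per sequence were 19.3 at 19 nt, 60.1 at 23 nt, 87.5 at 25 nt and 13.2 at 28 nt, so the peak at 25 nt came with both the most sequences (452) and the most reads per sequence. With each sequence of either strand counted once, lengths of 23 to 30 nt made up 64.9%.

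Shorter and longer reads came almost equally from the plus strand. Its share was 98.0% (97.9 to 98.1) of reads at 23 to 30 nt and 97.8% (97.6 to 98.0) of reads under 23 nt, a difference of 0.26 points (0.055 to 0.47, Newcombe interval). The sign of this difference was not stable: it was -0.83 points among sequences with at least 10 reads and -0.52 points without the 10 most read sequences.

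T was the first base of most plus-strand reads at every length from 19 to 29 nt. It was 87.3% (86.0 to 88.5) at 19 nt, 82.2% (81.7 to 82.7) at 24 nt, 93.3% (93.0 to 93.5) at 25 nt, 79.4% (78.5 to 80.3) at 27 nt and 76.6% (75.0 to 78.2) at 28 nt. Under 23 nt as a whole it was 84.9% (84.4 to 85.3), close to the value for 23 to 30 nt of 87.4% (87.3 to 87.6). At 18 nt, below the gel cut, it was 53.8%, and at 15 nt 40.3% of 119 reads. Counted per sequence, T came first in 43.1% of sequences at 25 nt, 47.1% at 27 nt and 69.0% at 29 nt, so the high shares of reads belonged to abundant sequences and the peak at 25 nt was not seen in the sequences.

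**Figure D2:**
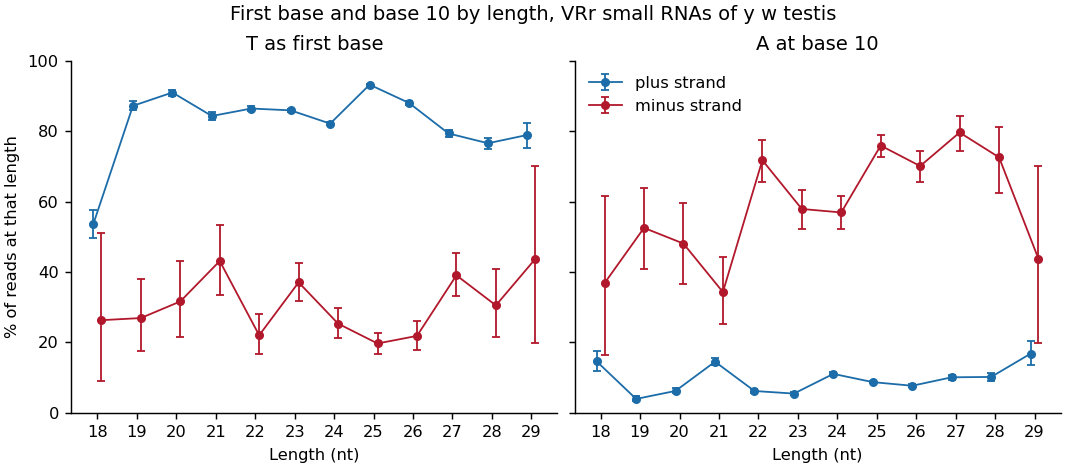
Percent of reads with T as first base (left) and with A at base 10 (right) by length in nt, for plus-strand reads in blue and minus-strand reads in red, with exact 95% intervals. T as first base is at 76.6% or more on the plus strand from 19 to 29 nt, and A at base 10 is higher on the minus strand at every length shown, with intervals that overlap at 18 and 29 nt.

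Minus-strand reads had the reverse bias. A at base 10 was more frequent at 23 to 30 nt than below, though not in a steady order by length. A at base 10 was 68.7% (66.7 to 70.6) at 23 to 30 nt and 55.9% (51.5 to 60.2) under 23 nt. By single length it was 48.1% (36.7 to 59.6) at 20 nt, 34.3% of 102 reads at 21 nt and 71.8% (65.5 to 77.6) at 22 nt. It was 57.0% (52.2 to 61.6) at 24 nt, 76.0% (72.7 to 79.1) at 25 nt and 79.7% (74.3 to 84.4) at 27 nt. Each start fixes its own base 10, so these shares depend on which starts hold the reads. At 23 nt the start TCTGGATACT, without A at base 10, held 22.1% of minus-strand reads. At 27 nt TCCACACGCA, with A at base 10, held 29.9%. With each minus-strand sequence of 23 to 30 nt counted once, A stood at base 10 in 50.5%. The part of the leading starts in the difference between the length classes was not tested. T came first in 26.5% (24.7 to 28.4) of minus-strand reads of 23 to 30 nt and in 28.7% (24.9 to 32.8) of those under 23 nt. On the plus strand A at base 10 was 8.53% at 23 to 30 nt and 7.96% under 23 nt.

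Taken as a class, reads of 19 to 22 nt matched more copies on average than longer ones. The deposited number of hits, which equals the number of VRr copies matched for all but 93 sequences with 317 reads in all, averaged 13.3 per read at 23 to 30 nt and 17.9 under 23 nt, a difference of -4.64 (-4.76 to -4.51). The interval of this difference of means is not a Clopper-Pearson interval, and it too covers counting error only. The size of the difference depended on the weighting, beyond that interval. It was -2.41 with each sequence counted once and -7.21 without the 10 most read sequences. Within the shorter reads the mean was 18.2 at 19 to 22 nt and 13.1 at 15 to 18 nt, so the shortest reads did not follow the order. On the plus strand the mean was 9.54 at 16 nt, 16.0 at 18 nt, 22.5 at 19 nt, 19.9 at 20 nt and 14.7 at 21 nt. It was then 17.9 at 22 nt, 17.3 at 23 nt, 12.7 at 24 nt, 13.3 at 25 nt and 6.30 at 29 nt. The fall from 19 nt up was thus not steady. On the minus strand the mean was between 13.8 and 15.7 at every length from 19 to 29 nt. At 19 nt, 69.0% of plus-strand reads shared 1 start, TGTTTCATCG, which matches all 26 copies, and this start took 48.7% at 20 nt. At 29 nt the leading start took 15.6%. A short sequence matches at least every copy that a longer sequence with the same start matches, so part of this fall is built in. The parts of the leading starts and of nesting in it were not tested apart.

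Length also differed with the copies a read could come from. Plus-strand reads that matched only copies 18 to 26 (58270 reads) averaged 24.6 nt, with 90.5% (90.3 to 90.8) at 23 to 30 nt, and those that matched both copies 1 to 17 and 18 to 26 (76254 reads) averaged 23.7 nt, with 77.5% (77.2 to 77.8). Both peaked at 25 nt. Part of this difference is built in, since a shorter sequence matches at least every copy that a longer one with the same start matches. The start TGTTTCATCG, with 20207 reads and a mean of 22.8 nt, matched all 26 copies at every length. Its part in the difference and that of nesting were not tested apart. On the minus strand, 2305 of 2787 reads matched only copies 1 to 17, against 588 of 135112 on the plus strand.

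Because each sequence is listed at 1 place, sequences with a common start can be listed in different copies. All 2779 sequences that match VRr18 were therefore placed on that copy, 1855 at their listed position and the rest by an overlap of at least 14 nt with those already placed. All could be placed with 0 conflicting bases, and they tiled a window of 444 bases, X:22275723-22276166, without a gap. No gene of the RefSeq table overlaps this window; the nearest is CG41562, whose end lies 23309 bases before it. The window held 123633 reads, or 89.7% of all VRr reads, of which 123201 were plus-strand reads.

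On VRr18 the 5′ ends of plus-strand reads were sharp and the 3′ ends ragged. Although 395 of the 444 bases were the 5′ end of at least 1 read, 4 of these ends together held 50% of the reads and 64 were needed for 90%. For 3′ ends the numbers were 396 ends, with 13 for 50% and 86 for 90%. The most read 5′ end held 18.6% of plus-strand reads and the most read 3′ end 7.68%, and the 5 leading ends of each kind held 61.2% and 26.7%. Placing the reads on VRr19 or VRr23 also gave 4 and 13 ends for 50% of the reads, but these copies hold 123659 and 120832 reads, most of them the same reads, so they give no independent support.

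**Figure D3:**
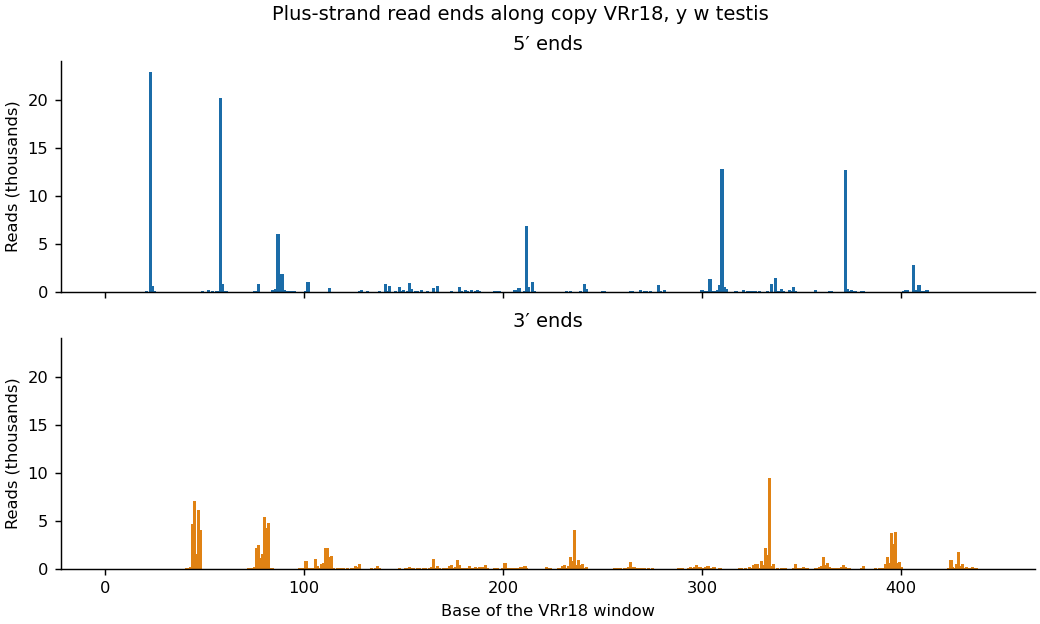
Reads (vertical, in units of 1000) whose 5′ end (top) or 3′ end (bottom) lies at each base of the VRr18 window (horizontal), plus strand. The 5′ ends stand as single spikes at bases 23, 58, 310, 372 and 212, and the 3′ ends form clusters of several neighbouring bases.

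The 5 leading starts each had their own length profile. The start at base 23 of the window, with 22889 reads, had 4479 reads at 22 nt, 6781 at 23 nt, 1481 at 24 nt, 5937 at 25 nt and 3814 at 26 nt, so 24 nt had fewer reads than the lengths on either side of it. At base 58 the start, with 20207 reads, had the lowest mean of the 5, 22.8 nt, with 1864 reads of 19 nt and 2135 of 20 nt beside 5081 of 23 nt, 3965 of 24 nt and 4493 of 25 nt. At base 310 the reads were the most uniform of the 5 in length, with 8413 of 12766 reads (65.9%) at 25 nt and 1688 at 23 nt. Base 372 had 3505 of its 12650 reads at 24 nt, 2371 at 25 nt and 3515 at 26 nt. Base 212 had 3613 of 6897 reads (52.4%) at 25 nt and 1110 at 23 nt.

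At base 58 the reads of 19 and 20 nt were set off only by a dip, to 998 reads at 21 nt and 1417 at 22 nt. The next start, at base 87, had a more separate group of short reads. It had 782 of 6022 reads at 20 nt and 25 at 22 nt, with 1814 at 25 nt and 1431 at 26 nt. Base 406 likewise had 350 of 2778 reads at 20 nt, against 91 at 22 nt and 1350 at 24 nt. The start at base 310 had no such group, with 11 reads at 19 nt and 20 at 20 nt.

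**Figure D4:**
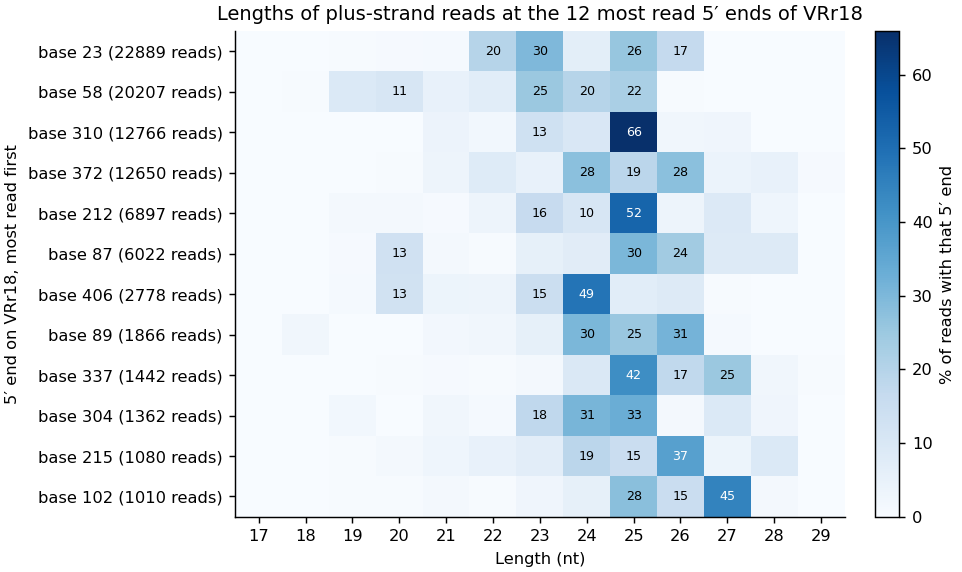
Percent of the reads of each 5′ end (rows, the 12 most read on VRr18, with their reads) that have each length in nt (columns); values of 10 or more are printed. The start at base 310 is concentrated at 25 nt (66), the start at base 23 is split between 22 to 23 and 25 to 26 nt, and bases 58, 87 and 406 have a separate group at 20 nt.

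The 5 leading starts were compared with all other starts on VRr18. They held 75409 plus-strand reads in 62 sequences with a mean length of 23.9 ± 1.79 nt (SD over reads), and the other 390 starts held 47792 reads in 2506 sequences with a mean of 24.3 ± 2.25 nt. Both groups peaked at 25 nt, with 32.9% of reads in the leading starts and 24.3% in the others. Each start has its own fixed first base and base 10, so for the 5 leading starts these shares follow from 5 short stretches of sequence. At 23 to 30 nt, T came first in 100% of reads at the leading starts and in 72.7% (72.3 to 73.2) at the others. A stood at base 10 in 0 of 61360 reads at the leading starts, as their sequences fix it, and in 20.3% (19.9 to 20.7) at the others. The bias to T was thus also seen in the reads of the other starts, but hardly in the starts themselves. With each 5′ end used at 23 to 30 nt counted once, T made up 36.1%, close to the 34.2% of T in the window. The starts ranked 6 to 12 by reads, with 6022 down to 1010 reads, all begin with T. The excess of T in reads therefore belonged to abundant starts.

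Nested sequences were also read without any coordinates, from the same reads, so they give no independent support. Sequences of a strand that begin with the same shorter listed sequence were taken as a family with a shared 5′ end, and those that end with the same shorter listed sequence as a family with a shared 3′ end. Of all reads, 99.8% lay in 5′ families and 99.5% in 3′ families of 2 or more lengths. With each sequence counted once the shares were 94.1% and 92.6%. Where so many bases serve as ends, nearly any read has a nested neighbour, so these shares do not tell the 2 ends apart. On the plus strand 4 of 654 5′ families held 50% of the reads, against 15 of 646 3′ families. Among families with at least 100 plus-strand reads, the leading length held a median of 42.0% of reads in 112 5′ families (21.0 to 89.2) and 65.9% in 137 3′ families (27.3 to 97.4). Reads that share a start thus differed more in length than reads that share an end.

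The largest 5′ family, with 24450 reads of both VRr18 and other copies, is printed at each length with at least 100 reads, with the bases beyond the shortest in capitals; its other 7 sequences had 1 to 59 reads.
20 nt, 118 reads: ttaatgccggaagcgatccc
21 nt, 185 reads: ttaatgccggaagcgatcccA
22 nt, 4479 reads: ttaatgccggaagcgatcccAC
23 nt, 6781 reads: ttaatgccggaagcgatcccACT
24 nt, 1481 reads: ttaatgccggaagcgatcccACTG
25 nt, 5937 reads: ttaatgccggaagcgatcccACTGC
26 nt, 3814 reads: ttaatgccggaagcgatcccACTGCT
26 nt, 1551 reads: ttaatgccggaagcgatcccACTGCC
The 22-nt sequence was the most read sequence under 23 nt. The sequences up to 25 nt matched 23 copies and cannot be assigned among them. The family forks at its last base shown: the 26-nt sequence ending in T matched 22 copies, and the one ending in C matched VRr26 alone, at X:22371798-22371823. Reads with a single hit were 1.89% of all reads at 23 to 30 nt and 0.138% of those under 23 nt. Most of them were this 1 VRr26 sequence, which held 1.12% of VRr reads of all lengths, against 1.59% for all single-hit reads.

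The second 5′ family, with 20207 reads, matched all 26 copies at every length and is printed to show its short members, with the same use of capitals; its other 4 sequences had 3 to 96 reads.
18 nt, 101 reads: tgtttcatcgttagacgg
19 nt, 1864 reads: tgtttcatcgttagacggC
20 nt, 2135 reads: tgtttcatcgttagacggCT
21 nt, 998 reads: tgtttcatcgttagacggCTC
22 nt, 1417 reads: tgtttcatcgttagacggCTCG
23 nt, 5081 reads: tgtttcatcgttagacggCTCGG
24 nt, 3965 reads: tgtttcatcgttagacggCTCGGG
25 nt, 4493 reads: tgtttcatcgttagacggCTCGGGC
Its reads stopped almost completely after 25 nt, with 96 at 26 nt and 49 at 27 nt.

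The 2 largest 3′ families are printed to show how little the 5′ end moved, at each length with at least 100 reads and with the bases ahead of the shortest in capitals. The first, with 9459 reads, had 88.9% of them at 1 start; its 24-nt and 26-nt neighbours begin 1 base later and 1 base earlier.
23 nt, 108 reads: tagcacacttttgtatcggcgtc
24 nt, 351 reads: Atagcacacttttgtatcggcgtc
25 nt, 8413 reads: TAtagcacacttttgtatcggcgtc
26 nt, 343 reads: GTAtagcacacttttgtatcggcgtc
The second, with 7091 reads, had 95.7% at 23 nt.
22 nt, 170 reads: taatgccggaagcgatcccact
23 nt, 6781 reads: Ttaatgccggaagcgatcccact

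The ends of the reads were set against the bases around them. The last base of plus-strand reads of 23 to 30 nt on VRr18 was C in 40.2%, against 24.5% of the bases of the window, and T in 25.7%. The base after the 3′ end was T in 29.7% of these reads, below the 34.2% of T in the window, and G in 42.0%, against 18.2% of G in the window. With each 3′ end counted once, the next base was T for 35.4% and G for 17.9%, both close to the window, so the direction for T turned and the excess of G was seen by reads only. A T after the 3′ end and a 5′ end at the next base are the marks of phased piRNA production, in which each cut makes the 3′ end of one piRNA and the 5′ end of the next. Counting for each 3′ end the lesser of its reads and those of a 5′ end downstream, a distance of 1 base held 2.70% of the counts over distances of 1 to 40 bases and ranked 15 of 40, and the most frequent distance was 11 bases with 4.60%. These shares are weighted by reads, so the few leading ends set most of them.

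The opposite strand met the leading starts at 1 exact overlap. Of 2268 minus-strand reads of 23 to 30 nt, 702, or 31.0% (29.1 to 32.9), began with the complement of the first 10 bases of the 5 most read plus-strand starts. Ping-pong cutting makes an overlap of 10 nt, but how these reads were made was not tested. All 5 starts begin with T, so the 702 reads have A at base 10 by their sequence. They are among the 1558 minus-strand reads of 23 to 30 nt with A at base 10, so the overlap and that bias are not separate signs. The same count was 40 reads for an overlap of 9 nt and 3 for 11 nt, and it lay between 0 and 7 at each other overlap from 4 to 22 nt. Overlaps other than 10 nt were read against the sequence of VRr18, so minus-strand reads of a diverged copy can be missed; with up to 2 mismatches the counts were 703 for 10 nt, 43 for 9 nt and at most 13 elsewhere.

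**Figure D5:**
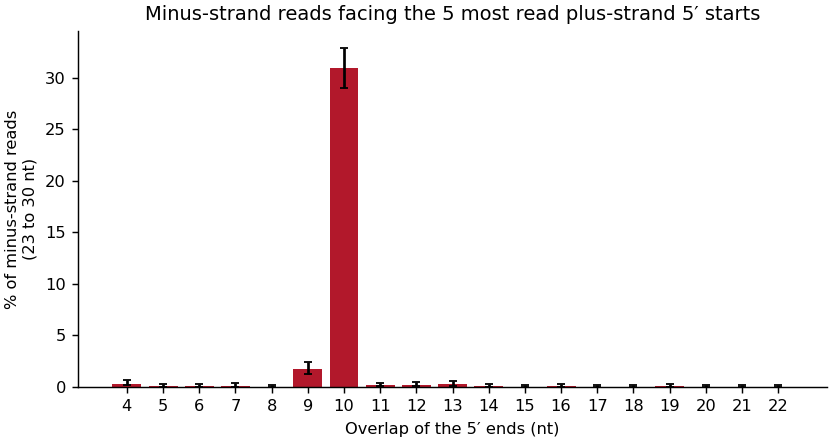
Percent of minus-strand reads of 23 to 30 nt (vertical) whose 5′ end overlaps 1 of the 5 most read plus-strand starts by the number of nt given (horizontal), with exact 95% intervals. The bar at 10 nt stands at 31.0%, and the next highest, at 9 nt, at 1.76%.

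The pair of starts with most reads on its rarer side is shown with the complementary first 10 bases in capitals.
Plus, 8413 reads: TATAGCACACttttgtatcggcgtc
Minus, 118 reads: GTGTGCTATAccggtaattaccgct
At 23 to 30 nt this pair of starts had 12008 plus-strand and 191 minus-strand reads. The plus-strand sequence matched 5 copies and the minus-strand sequence 14, and these leading sequences had 0 copies in common; 188 of the 191 minus-strand reads matched none of the copies of the plus-strand sequence. All sequences with these starts together matched 20 copies (plus) and 19 copies (minus), with 19 in common, but only 25 of the 12008 plus-strand reads matched a copy of the leading minus-strand sequence. For TAATGTCCCT (11404 plus-strand reads) there were 51 minus-strand partners, of which 33 matched none of the 5 copies of its leading sequence, while all sequences with these starts had 18 copies in common and 234 plus-strand reads matched a copy of the leading minus-strand sequence. For TTAATGCCGG there were 186 partners of 19594 reads, for TGTTTCATCG 136 of 13687 and for TGATTAAAGC 138 of 6489, and each of these partners matched at least 1 copy that the leading plus-strand sequence matches.

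Partners of the leading starts were counted at 23 to 30 nt only. Within this range they had mean lengths near the 25.1 nt of all minus-strand reads of 23 to 30 nt. The means were 25.1 nt for TTAATGCCGG, 25.0 nt for TGTTTCATCG, 25.0 nt for TATAGCACAC, 25.7 nt for TAATGTCCCT and 24.5 nt for TGATTAAAGC, and their commonest length was 25 nt for the first 3, 26 nt for TAATGTCCCT and 23 nt for TGATTAAAGC. For TGATTAAAGC this is the shortest length counted, so its mean and commonest length leave out shorter partners. Its partner start GCTTTAATCA led the minus strand at 22 nt, with 20.7% of 227 reads, and at 19 nt, with 16.7% of 78 reads. The plus-strand start TGTAAAATTC ranked next with 5063 reads and had 1 partner read, and TATTGCTTGT had 1 for 2205 reads. Many plus-strand reads thus did not always come with partners. Partners also stood opposite rarer starts, as for TTCTAATGGC, with 448 plus-strand and 136 minus-strand reads. Any plus-strand partner at 10 nt, however rare, was found for 85.8% (84.3 to 87.2) of minus-strand reads of 23 to 30 nt, against 71.7% to 76.4% when the plus-strand window was moved by 1 to 6 nt.

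Transposon small RNAs of 23 to 30 nt in the other libraries are given beside these values as context, without a test, since strain, species and sequences all differ, and 0 sequences were shared between the tables. The 25-nt class held 35.1% of the VRr reads of 23 to 30 nt in y w, against transposon shares of 25.7% (hybrid), 29.3% (Hmr1) and 25.0% (D. mauritiana). The mean length was 24.8 nt for VRr reads in y w, against transposon means of 25.5 nt (hybrid), 24.9 nt (Hmr1) and 25.0 nt (D. mauritiana). T came first in 86.2% of VRr reads, against 73.1% (hybrid), 70.3% (Hmr1) and 59.2% (D. mauritiana) for transposons. A stood at base 10 in 9.72% of VRr reads, against 29.2% (hybrid), 30.1% (Hmr1) and 28.1% (D. mauritiana) for transposons.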

How the data were processed

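The VRr table holds read counts of y w as deposited by the authors, 1 line per distinct sequence, with its length, strand, number of hits and 1 listed place; the last line, a total, was left out. A sequence's count is repeated under each copy it matches, so copy columns were used only to see which copies a sequence matches. The transposon table holds the authors' deposited counts for the other small RNA libraries and gave the context values. Counts were not scaled. The tools were cutadapt 1.8.1, Bowtie 1.2.2 and Bowtie 0.12.7 with build dm6, per the submitters' processing notes; the mismatches allowed are not stated there.

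Shares were computed with pandas 2.3.3 and scipy 1.17.1 in Python 3.11.15. Placement on copies and the count of partners by overlap were added after the data were seen. The members, lists and naming rule were chosen with earlier results of these data known. The sequences named were the 5 most read plus-strand and 3 most read minus-strand sequences of 23 to 30 nt, the most read one below and above that range, the 2 largest families of each kind and the pair of opposite starts with most reads on its rarer strand; family members under 100 reads are given as ranges. Placement, families and end counts were tested on simulated plus-strand reads of a single random copy and returned the true positions. Minus-strand reads and reads of several similar copies were not simulated, so errors from these were not tested. The strand sheets and the vasa mapping table were not used.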

Additional observations from a re-analysis of the deposited data

Results flagged for a closer look

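The VRr table has a column for vasa that no comparison above uses, and it was not empty. It held 7 reads in 3 sequences of 19 to 20 nt, all on the minus strand and each matching 22 VRr copies. Because they match VRr copies as well, these reads cannot be assigned to vasa, and no background level was available for them. The 20-nt sequence, tgatgaacgtcgtggaagac with 2 reads, holds both others, gatgaacgtcgtggaagac with 3 reads and tgatgaacgtcgtggaaga with 2. They are listed between X:22275950 and X:22275969.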

How the results depend on the processing

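With each distinct sequence counted once, the share at 23 to 30 nt was 64.9%, mean lengths were 23.4 nt (plus) and 23.5 nt (minus), the strand difference was 0.66 points, T came first in 46.6% of plus-strand sequences and A stood at base 10 in 50.5% of minus-strand sequences, the difference in copies was -2.41, and families of several lengths held 94.1% (5′) and 92.6% (3′). Sequences with at least 10 reads gave, in the same order, 84.3%, 24.2 nt and 24.7 nt, -0.83 points (a change of sign), 89.4%, 77.8%, -5.40, 98.3% and 97.5%. Dividing reads by the copies matched gave 89.2%, 24.6 nt and 24.2 nt, 1.07 points, 80.2% for T, -4.14, 99.7% and 99.5%. Leaving out the 10 most read sequences gave 78.6%, 23.998 nt on the plus strand, -0.52 points (a change of sign), 78.9% for T, -7.21, 99.6% and 99.3%. A window of 24 to 29 nt gave 87.8% for T. Families by listed end held 99.7% (5′) and 99.4% (3′). The cause of these shifts was not tested. A at base 10 stayed within its interval when reads were divided by copies and in the narrower window; leaving out the 10 most read sequences removes no minus-strand sequence, so it cannot test minus-strand values. Scaling between libraries and leaving out a replicate could not apply to 1 library. No paired analysis was possible because there was 1 y w library. On VRr2, sequences with 58750 reads could not be placed, so that copy gave no value.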
